A study of Mus musculus with 4 samples.

Results

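Described here are 9 genes of surface receptors that are characteristic of mature B cells: Cd22, Cd72, Ms4a1, Cr2, Fcer2a, Cd40, Cd83, Tnfrsf13b and Tnfrsf13c. They were found by their gene names on whole-genome expression arrays of mouse preproB cells, where they account for 9 of the 31660 genes named and for 15 of the 39429 probes. The 4 arrays came from 4 samples of C57BL/6 mice, 2 in each group. In the control group the mice were Enh(f/f), which carry a floxed enhancer at +37 kb of Cebpa and no Cre. In the group called EnhDel they were Enh(f/f);Mx1-Cre, in which the interferon-inducible Mx1 promoter drives the recombinase that deletes the enhancer. Both groups received 3 doses of pIpC, a double-stranded RNA that induces interferon, and the cells were sorted from bone marrow 5 weeks later as lineage-negative B220+ CD43+ BP1- CD24- cells. Control replicate 1 was labelled female and 26 weeks old, and the other samples male and 24 weeks old. Cre was present in the EnhDel group alone, so the effects of Cre and of the lost enhancer cannot be told apart. The labels of the 2 control samples thus differ in sex and age, but the labels do not say whether each sample came from 1 mouse or a pool, or whether the 2 EnhDel samples came from separate mice. The p-values measure the spread between these samples, which may be partly technical.

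PreproB cells are among the earliest progenitors of the B lineage in the marrow, before the B cell receptor is assembled. The 9 receptors are better known from later stages, where they tune the signal of that receptor (Cd22, Cd72, Cr2), bind immunoglobulin E (Fcer2a), or receive help and survival signals through the tumour necrosis factor receptor family (Cd40, Tnfrsf13b, Tnfrsf13c). Several of them are not private to B cells: Cd40 and Cd83 are also well known from dendritic cells.

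All 9 genes gave a signal well above background on all 4 arrays through their brightest probe. By limma with Benjamini-Hochberg adjustment over 19391 genes, none of the 9 passed the threshold of 0.05 for a difference between the groups, against a background of 0% of all genes tested. At an unadjusted p under 0.05 the count was 3 of 9 members and 2131 of all genes (10.99%). The groups did not overlap for 6 of the 9. Of these, 5 were higher in EnhDel (Ms4a1, Cr2, Fcer2a, Cd83 and Tnfrsf13b), where 27.2% of all genes tested were, and 1 was lower (Tnfrsf13c), where 16.6% of all genes were. The median log2 difference, EnhDel minus control, was 0.59 over the 9 genes and 0.06 over all genes tested. The difference lay above 0 for 8 of the 9, a count that was 7 with scaling to the array median and 6 with normexp background correction. On EnhDel replicate 1, 6 spots had a very high local background (up to 10214, against at most 48 on the other arrays), and with those spots set to the array median before normexp the count was 8.

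That median depended on single arrays. Without EnhDel replicate 2 it was 0.10, and 5 of the 9 differences lay above 0. Without control replicate 1 it was 0.27, and 7 of the 9 lay above 0. EnhDel replicate 1 alone lay above both controls for 5 of the 9 genes, where 45.6% of all genes did, and below both for 2 (Cd22 and Tnfrsf13c), where 30.6% of all genes did. Ms4a1, Cr2 and Cd83 kept most of their difference without EnhDel replicate 2, at 0.52, 0.52 and 0.53.

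**Figure D1:**
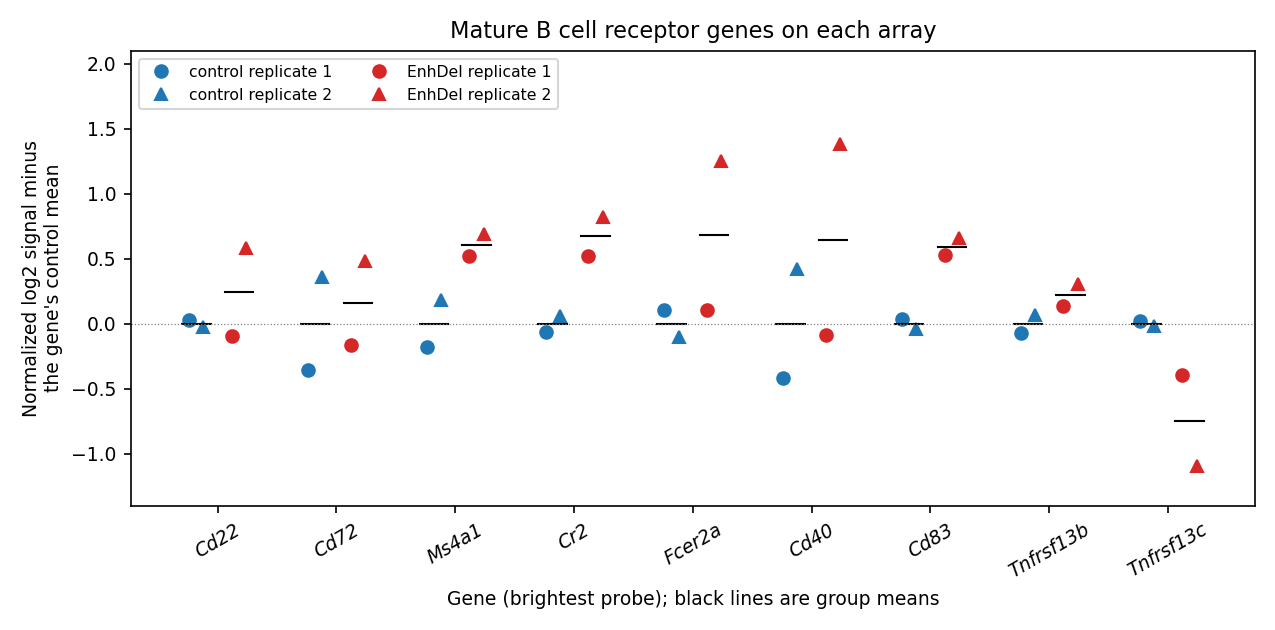
Normalized log2 signal of the brightest probe of each of the 9 receptor genes (x axis) on each of the 4 arrays, as the difference from the gene's control mean (y axis, log2), with circles for replicate 1, triangles for replicate 2, control in blue, EnhDel in red and black lines at the group means. Both EnhDel arrays sit above both controls for Ms4a1, Cr2 and Cd83, and EnhDel replicate 2 stands far from replicate 1 for Fcer2a and Cd40.

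One slide and a single scan held all the arrays, and between 59.6% and 64.9% of probes were well above background on each, with 0 saturated. Replicates of the EnhDel group differed more than those of the control group: the standard deviation over genes of the log2 difference between replicates was 0.61 in EnhDel and 0.33 in control. Cebpa, the gene that the deleted enhancer belongs to, had processed signals of 1271 and 927 in control and of 125 and 287 in EnhDel, which matches the labels. The sex labels matched less well. Xist, the transcript of the inactive X, was well above background only in EnhDel replicate 2, labelled male, at 1551 against about 3 elsewhere (3.40, 3.06 and 2.88). The Y-linked Ddx3y was measured on all arrays, at 3116 and 3474 in control, 3624 in EnhDel replicate 1 and 1560 in EnhDel replicate 2. Control replicate 1, labelled female, thus had Y-linked signal and no Xist above background, and EnhDel replicate 2 had both. Values without EnhDel replicate 2 are therefore given beside many of the results that moved when it was left out.

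Marker lists of other cell types were read on the same arrays, as the sum over each list of the signal relative to the array's 75th percentile. For plasmacytoid dendritic cells, 10 of 10 markers were well above background on every array, with summed levels of 1000 and 916 in control and 989 and 949 in EnhDel. Conventional dendritic cell markers gave 94.3 and 93.0 in control and 82.2 and 70.7 in EnhDel, with 5 or 6 of 8 well above background. Of the 6 tested, 3 were lower without overlap (50%, against 16.6% of all genes) and 0 were higher (0%, against 27.2%). Mature B cell markers other than the 9 genes gave summed levels of 72.6 and 68.1 in control and 70.7 and 58.0 in EnhDel, with 7 to 9 of 9 well above background. Pax5, a defining B cell regulator of that list, was above background only in control replicate 2. T cell markers were higher in EnhDel (13.6 and 11.4 against 21.9 and 32.8, with 7 or 8 of 8 above background), as were erythroid markers (0.38 and 1.07 against 2.05 and 3.61, from 2 of 6 above background in control replicate 1 to 6 of 6 in EnhDel replicate 2). The monocyte sum was lower (22.4 and 19.3 against 8.84 and 14.6, with 10 of 10 above background in control and 7 and 8 in EnhDel). Of the 10 monocyte markers tested, 7 were lower without overlap (70%, against 16.6% of all genes) and 0 higher (0%, against 27.2%). Their median log2 difference was -2.34 (-2.28 without EnhDel replicate 2). The neutrophil sum was also lower (14.8 and 17.2 against 1.03 and 7.83, with 4 or 5 of 8 above background). Most of the neutrophil sum was Mpo, with processed signals of 13685 and 18170 in control and 534 and 7219 in EnhDel. Of the 5 neutrophil markers tested, 4 were lower without overlap (80%, against 16.6% of all genes) and Camp was higher (20%, against 27.2%). Most of the T cell sum was Cd4, at 8914 and 8801 in control and 14430 and 28070 in EnhDel. Of the 7 T cell markers tested, 5 were higher without overlap (71.4%, against 27.2%). The part of these cell types in the receptor differences was not tested. In bulk samples such as these, fewer cells of a type and less RNA per cell cannot be told apart.

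The sequences that carry the measurements are shown for Ms4a1, Cr2 and Cd83, for Cd40 and for the pair of Tnfrsf13c probes that disagreed. Each array probe is 60 bases long and reads 5′ to 3′ along the transcript, with positions on build mm9. For the probes nearer the 3′ end the last 30 bases are given, in lower case, and in Cd40 the capitals mark AATAAA, the letters of the poly(A) signal.
Ms4a1, chr19:11325367-11325426, minus strand, last 30 bases: gagtagtttatttggtctttcatgattcac
Cr2, chr1:196965532-196965591, minus strand, last 30 bases: gagaaggtagtggctgctctctgctcttgt
Cd83, chr13:43898276-43898335, plus strand, last 30 bases: cagatgttgcattgatgtaacattgttgca
Cd40, chr2:164897085-164897144, plus strand, last 30 bases: cttgAATAAAagacacactcaacctttata
Tnfrsf13c, base 1817 of its transcript, chr15:82052203-82052262, minus strand, last 30 bases: gaaaggtactgttaaaccaaaattaatctg
Tnfrsf13c, base 91 of its transcript, chr15:82054616-82054675, minus strand, whole probe: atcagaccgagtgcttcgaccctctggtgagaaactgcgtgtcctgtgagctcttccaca
The 9 genes lie on 9 different chromosomes. The scanner files give each probe's transcript and base but no exon or untranslated region, so which of these a probe lies in was not worked out here.

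Cr2 encodes complement receptors that bind C3 fragments. Its brightest probe, at base 3620 of the transcript, had processed signals of 131 and 160 in control and of 188 and 248 in EnhDel. Both EnhDel values lay above both controls. The log2 difference was 0.67 ± 0.18 (SE, n = 2 per group), with a 95% interval of 0.19 to 1.16 and a limma adjusted p of 0.35. A second Cr2 probe, at base 6140 (chr1:196963012-196963071, mm9), read 43.2 and 49.3 in control against 51.9 and 90.4 in EnhDel. Its groups did not overlap either, and its log2 difference was 0.67, with an interval of -0.07 to 1.41 (limma adjusted p over all probes 0.48). The group differences of the pair were close, but without EnhDel replicate 2 they were 0.52 at base 3620 and 0.32 at base 6140.

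Fcer2a encodes CD23, the low-affinity receptor for immunoglobulin E. Its probe (chr8:3682343-3682402, minus strand) had signals of 71.6 and 69.8 in control and of 68.6 and 163 in EnhDel. EnhDel replicate 2 stood alone, and after normalization EnhDel replicate 1 exceeded the higher control by only 0.0035 on the log2 scale. The log2 difference of 0.68 ± 0.42 (SE, n = 2 per group) had an interval of -0.45 to 1.81 and a limma adjusted p of 0.63. Leaving out EnhDel replicate 2 brought it to 0.10. With EnhDel replicate 1 left out instead it was 1.25, with a limma adjusted p of 0.031, where the lone EnhDel array is assumed to vary like the controls and 3210 of all genes passed.

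Cd22 and Cd72 are inhibitory receptors of B cells. Cd22 binds sialic acids and recruits the phosphatase encoded by Ptpn6, and Cd72 is a lectin-like receptor for the semaphorin encoded by Sema4d. Cd22 (chr7:31651249-31651308, minus strand) read 1002 and 1083 in control and 881 and 1508.5 in EnhDel. The controls lay between the EnhDel values, and the log2 difference was 0.24 ± 0.27 (SE, n = 2 per group, limma adjusted p = 0.78). It was -0.09 without EnhDel replicate 2. A dimmer Cd22 probe at base 189 of another transcript (chr7:31665113-31665172) was not well above background in either control, at 12.3 and 10.9. It was so on both EnhDel arrays, at 14.9 and 25.7. Against the lowest signal well above background on the control arrays (14.4 and 13.3), it was 1.51-fold brighter in EnhDel, and 1.19-fold in EnhDel replicate 1 alone. That floor is the lowest such probe of each array and no detection limit. This probe entered the fit only through the EnhDel arrays. These folds and its limma adjusted p over all probes (0.43) are therefore given as a description.

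Cd72 (chr4:43460596-43460655, minus strand) read 5998 and 11023 in control and 6564 and 10990 in EnhDel. In both groups replicate 2 was the brighter array, by 0.71 on the log2 scale in control and by 0.64 in EnhDel, and the groups overlapped. The difference between groups was 0.16 ± 0.36 (SE, n = 2 per group, limma adjusted p = 0.89), smaller than either gap between replicates. It was -0.16 without EnhDel replicate 2 and -0.19 without control replicate 1. Median scaling gave -0.01, and normexp gave -0.07, or 0.16 with the 6 spots repaired. A second Cd72 probe shifted by 11 bases shares 49 bases with the first, so it is no separate measurement, and it gave 0.16.

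Ms4a1 encodes CD20, a membrane protein of the B lineage. Its probe read 389.5 and 561 in control and 604 and 731 in EnhDel. Both EnhDel arrays exceeded both controls, although the controls themselves differed by 0.36 on the log2 scale. EnhDel exceeded control 1.52-fold, a log2 difference of 0.61 ± 0.20 (SE, n = 2 per group) with an interval of 0.08 to 1.14 and a limma adjusted p of 0.41.

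Cd83 encodes an immunoglobulin-like protein of activated B cells and dendritic cells. It read 97.7 and 104 in control and 131 and 154 in EnhDel. Here the replicates were close, 0.08 apart on the log2 scale in control and 0.13 in EnhDel, and the groups were well separated. The log2 difference of 0.59 ± 0.15 (SE, n = 2 per group), or 1.51-fold, had an interval of 0.18 to 1.00 and a limma adjusted p of 0.34.

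Cd40, the receptor for the T cell ligand CD40L, behaved otherwise. It read 85.0 and 171 in control and 102 and 303 in EnhDel, so EnhDel replicate 1 lay between the controls. Replicate 2 exceeded replicate 1 by 0.84 in control and by 1.47 in EnhDel on the log2 scale, both larger than the difference between groups of 0.65 ± 0.59 (SE, n = 2 per group, limma adjusted p = 0.74). Without EnhDel replicate 2 the difference was -0.09, and without EnhDel replicate 1 it was 1.38.

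**Figure D2:**
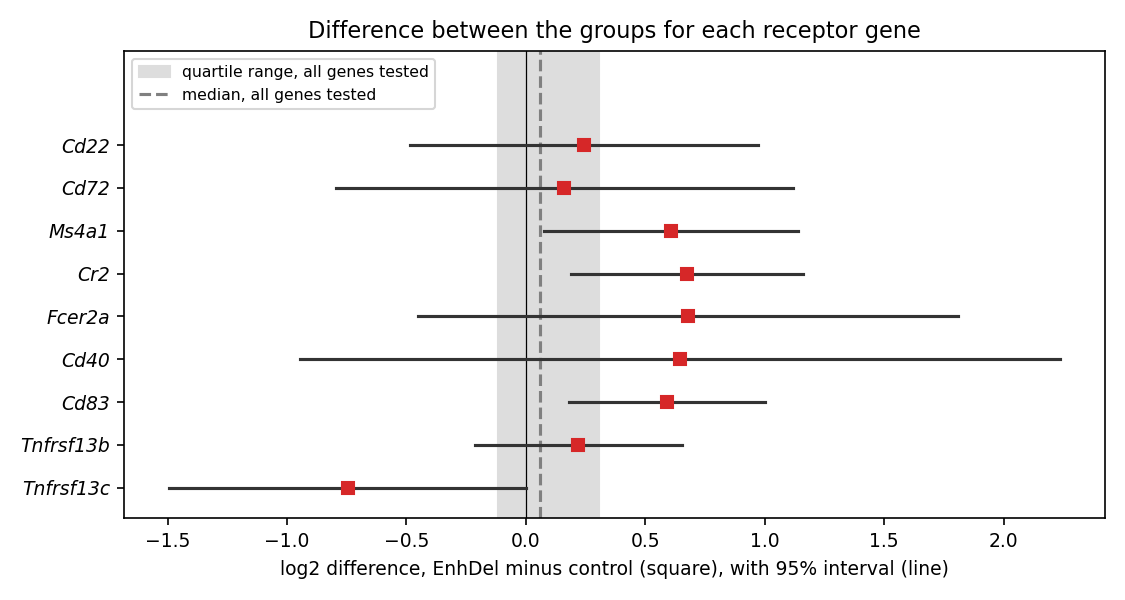
Log2 difference, EnhDel minus control (x axis), of each of the 9 receptor genes (y axis), with squares for the estimates and lines for limma's 95% intervals (2 arrays per group), and with the median (dashed) and the quartile range (grey) of all 19391 genes tested. The intervals of Ms4a1, Cr2 and Cd83 exclude 0 before adjustment, that of Tnfrsf13c ends at 0.00, and the widest is that of Cd40.

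The receptors for the survival factors BAFF and APRIL gave differences of opposite sign through their brightest probes. Tnfrsf13c encodes the BAFF receptor, and Tnfrsf13b encodes TACI, which binds both factors. The Tnfrsf13c probe at base 1817 read 3053 and 3337 in control and 2189 and 1443 in EnhDel. Both EnhDel arrays were below both controls, which differed from each other by only 0.04 on the log2 scale. The log2 difference was -0.75 ± 0.28 (SE, n = 2 per group), with an interval of -1.49 to 0.00 and a limma adjusted p of 0.46. Leaving out EnhDel replicate 2 gave -0.40. Leaving out EnhDel replicate 1 gave -1.10, with a single EnhDel array left.

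The other Tnfrsf13c probe, at base 91, did not show that difference. It read 76.2 and 87.8 in control and 64.7 and 102 in EnhDel, the EnhDel values lay on either side of the controls, and the log2 difference was 0.09 (limma adjusted p over all probes 0.91). Within each array, the log2 gap between the base 1817 and base 91 probes was 5.32 and 5.25 in control and 5.08 and 3.82 in EnhDel, so the pair changed unequally, by -0.84. An exact permutation test of that gap cannot go below a two-sided p of 0.333 with 2 arrays a group. With all 4 arrays, the lower Tnfrsf13c value therefore rests on 1 of its 2 probes, and the mean of both probes gave -0.33. Without EnhDel replicate 2 both probes were lower in EnhDel, at -0.40 for base 1817 and -0.19 for base 91.

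Tnfrsf13b read 23600 and 29102 in control and 25980 and 31268 in EnhDel through its probe at base 2451 (chr11:60962770-60962829, plus strand). After normalization both EnhDel arrays lay above both controls, and the log2 difference was 0.22 ± 0.16 (SE, n = 2 per group, limma adjusted p = 0.68), or 0.14 without EnhDel replicate 2. Its second probe, at base 408 of another transcript (chr11:60960405-60960464), read 1672 and 1835 in control and 1580 and 1804.5 in EnhDel, with overlapping groups and a difference of 0.05. The dimmest, at base 175 (chr11:60954823-60954882), was close to background. Control replicate 1 was not well above it at 12.05, and the others read 21.4, 17.045 and 31.3. The sequences of these other probes are shown because their readings differ from that of the brightest probe.
Tnfrsf13b, base 408: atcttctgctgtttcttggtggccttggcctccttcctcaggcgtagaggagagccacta
Tnfrsf13b, base 175: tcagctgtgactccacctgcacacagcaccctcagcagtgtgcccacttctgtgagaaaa

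**Figure D3:**
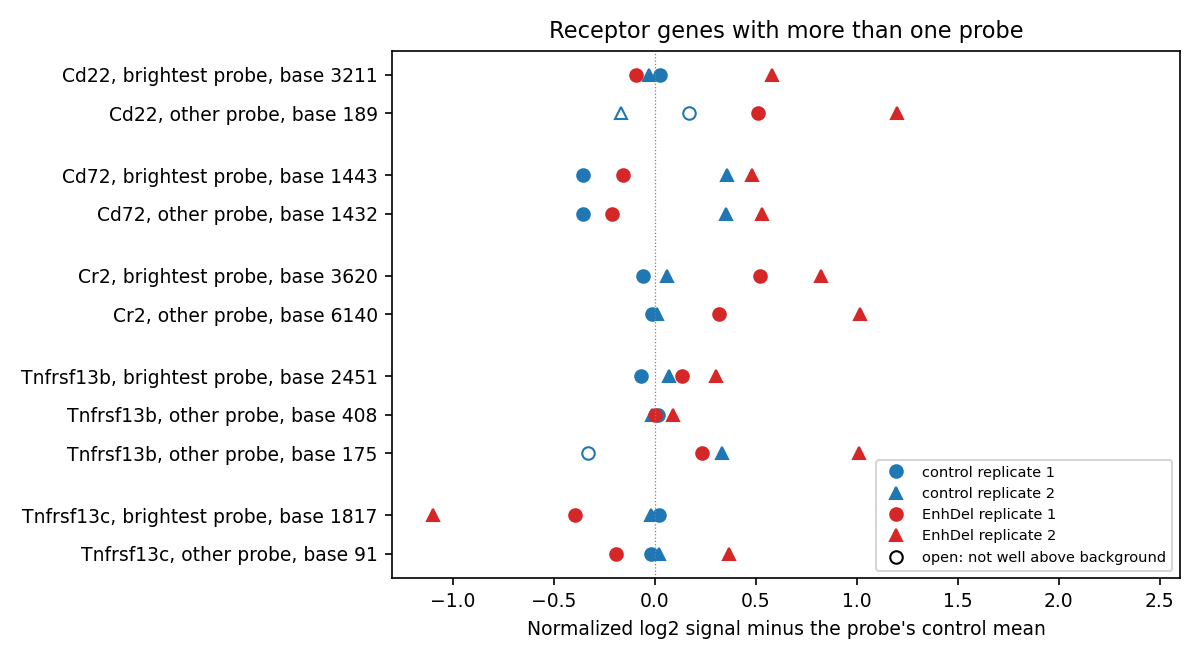
Normalized log2 signal minus the probe's control mean (x axis) for each probe (y axis, named by gene and base in its transcript) of the 5 receptor genes with more than 1 probe, on each of the 4 arrays, with open symbols where a probe was not well above background. Both Cr2 probes have both EnhDel arrays above both controls, and for Tnfrsf13c only the probe at base 1817 has both EnhDel arrays below both controls.

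The ligands and co-receptor partners of the 9 receptors held 11 genes, of which 10 were on the array and 7 were tested. None passed limma adjustment. The groups did not overlap for 5 of the 7, with 4 lower in EnhDel (57.1%, against 16.6% of all genes) and 1 higher (14.3%, against 27.2%). The median log2 difference was -0.17. It was -0.35 without EnhDel replicate 2, -0.34 with median scaling, -0.42 with the mean of a gene's probes and -0.40 in the deposited values. EnhDel replicate 1 alone lay below both controls for 5 and above for 2, where 30.6% and 45.6% of all genes did. Cd79a, a signalling chain of the B cell receptor, read 1229 and 1746 against 801 and 767, a log2 difference of -0.80 ± 0.19 (SE, n = 2 per group, limma adjusted p = 0.32). Both EnhDel arrays thus lay below both controls. Cd79b, the partner of Cd79a, gave -0.16 ± 0.14 (limma adjusted p = 0.73). Ifitm1, an interferon-induced membrane protein, read 66.9 and 88.8 in control and 225 and 2675 in EnhDel, a difference of 3.43 ± 1.19 (limma adjusted p = 0.43) that was 1.70 without EnhDel replicate 2.

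Among the ligands, the semaphorin gene Sema4d read 25170 and 24746 in control against 27764 and 23778 in EnhDel (0.14 ± 0.19, limma adjusted p = 0.82). The complement gene C3 gave -0.17 ± 0.29 (limma adjusted p = 0.86). Without EnhDel replicate 2, Sema4d gave 0.30 and C3 gave -0.46. Tnfsf13, which encodes APRIL, was not analysed here. Tnfsf13b, which encodes BAFF, and Cd40lg were well above background on none of the 4 arrays. Tnfrsf17, another receptor of this family for BAFF and APRIL, was above background only on replicate 2 of each group (16.8 in control and 13.7 in EnhDel) and was not tested.

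Of 33 genes of signalling below the receptors, all were tested and none passed. The groups did not overlap for 13, and all 13 were higher in EnhDel (39.4% of the list, against 27.2% of all genes). With EnhDel replicate 2 left out, 25 lay above both controls and 1 below, where 45.6% and 30.6% of all genes did. The list's median was 0.10, and it was -0.08 with median scaling and -0.04 with normexp, or 0.10 with the 6 spots repaired. Vav2, a guanine nucleotide exchange factor, had the smallest p, with 139 and 182 in control against 262 and 249 in EnhDel (log2 difference 0.78 ± 0.17, SE, n = 2 per group, limma adjusted p = 0.29). Nfkbie, an inhibitor of NF-kappaB, followed at 0.55 ± 0.19 (limma adjusted p = 0.43), and Traf1, an adaptor of tumour necrosis factor receptors, at 0.55 ± 0.22 (limma adjusted p = 0.48). Without EnhDel replicate 2 they were 0.87, 0.37 and 0.31.

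Other surface proteins of the B lineage numbered 31, all tested, with 11 higher (35.5%, against 27.2% of all genes) and 3 lower (9.68%, against 16.6%) in EnhDel without overlap and none past the threshold. EnhDel replicate 1 alone lay above both controls for 15 and below for 5, where 45.6% and 30.6% of all genes did. The median was 0.10, and it was -0.08 with median scaling and -0.13 with normexp, or 0.08 with the 6 spots repaired. Btla, an inhibitory receptor of lymphocytes, read 4345 and 4422 in control against 1759 and 1757.5 in EnhDel, so that its replicates were close on both sides (-1.22 ± 0.15, SE, n = 2 per group, limma adjusted p = 0.19). Cd93, a surface protein of early B cells, gave -2.01 ± 0.46 (limma adjusted p = 0.30; -1.38 without EnhDel replicate 2), and Il4ra, the interleukin 4 receptor chain, gave 0.77 ± 0.21 (limma adjusted p = 0.35).

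Of 17 regulators of B cell maturation, 16 were tested. Without overlap, 4 were lower (25%, against 16.6% of all genes) and 3 higher (18.75%, against 27.2%). The median was -0.05, and it was -0.23 with median scaling, -0.15 without control replicate 2 and -0.19 with normexp, or -0.05 with the 6 spots repaired. In EnhDel replicate 1 alone, 6 were below and 6 above both controls, where 30.6% and 45.6% of all genes were. Ebf1, the factor that specifies the B lineage, read 392 and 659 in control against 146 and 59.5 in EnhDel, a log2 difference of -2.35 ± 0.53 (SE, n = 2 per group, limma adjusted p = 0.30) that was -1.65 without EnhDel replicate 2. Pou2af1, a coactivator of octamer factors, gave -0.69 ± 0.22 and Pou2f2, an octamer factor, 0.61 ± 0.19 (limma adjusted p = 0.40 and 0.39). Pax5 was not tested, at 14.6 and 20.5 in control against 6.30 and 11.6 in EnhDel. Of 12 early B lineage markers, 9 were lower without overlap (75%, against 16.6% of all genes) and 1 higher (8.33%, against 27.2%). The median log2 difference of these markers was -1.51 (-1.01 without EnhDel replicate 2). Their summed levels overlapped, at 296 and 269 in control and 272 and 198 in EnhDel. Most of that sum was Ly6d and Dntt, the 2 markers of the list whose groups overlapped. None of these genes passed adjustment.

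**Figure D4:**
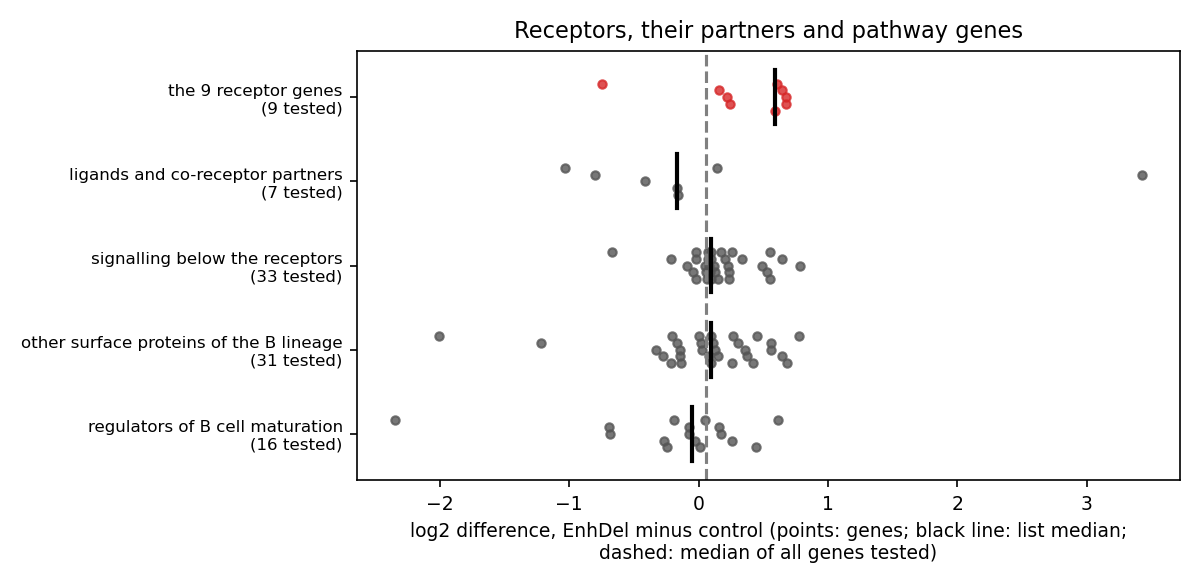
Log2 difference, EnhDel minus control (x axis), of each tested gene of the 9 receptors (red) and of 4 pathway lists (grey; rows), with the list median as a black line and the median of all genes tested dashed. The receptor median of 0.59 lies to the right of the medians of the other lists, which run from -0.17 to 0.10, and the point at the far right is Ifitm1. Without EnhDel replicate 2 (not drawn) the receptor median was 0.10, and the other medians ran from -0.35 to 0.11.

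For the 3 members with the largest differences, the genes with the most similar pattern over the 4 arrays were sought among 12625 genes above background on all arrays, as the root mean square distance in log2 units after each gene was centred on its mean. The nearest to Tnfrsf13c were Plpp1 (distance 0.015), Zdhhc23 (0.029) and Sox4 (0.033). Nearest to Fcer2a were Obp1a (0.020), G6pc (0.023) and Mxd1 (0.029), and nearest to Cr2 were Txlnb (0.021), Gem (0.025) and Jak3 (0.031). With 4 arrays and this many candidates, such distances describe these arrays and no more.

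Promoter sequence from RefSeq (build GRCm38.p6) was at hand for 6 of the 9 genes, all but Ms4a1, Cd40 and Cd83, as the 250 bases before each start. Fcer2a had 3 such windows and the others 1 each, which made 8. Both strands were searched for 5 motifs. GGAAGT, searched as an ETS core, was found in 4 of the 8 windows (those of Cd72, Cr2 and Tnfrsf13b and 1 of Fcer2a). Of all 32851 promoter windows of that length, 19.7% held it. The palindromic Ebf1 motif was found in the window of Cd22 alone, and in 0.779% of all windows. The E box CANNTG was found in 5 of the 8 windows and in 66.2% of all windows, and neither the octamer ATGCAAAT nor the interferon-stimulated response element was found for any (1.60% and 2.98% of all windows). Matches are letters in a window and not measured binding sites. Cr2 and Tnfrsf13c, tested members with differences of opposite sign through their brightest probes, are shown, with GGAAGT or its reverse complement in capitals. It occurs in the first and not in the second. GGAAGT was also found for Cd72 (difference 0.16) and not for Cd22 (0.24). A relation between motif and difference was not tested.
Cr2, chr1:195176720-195176969, minus strand: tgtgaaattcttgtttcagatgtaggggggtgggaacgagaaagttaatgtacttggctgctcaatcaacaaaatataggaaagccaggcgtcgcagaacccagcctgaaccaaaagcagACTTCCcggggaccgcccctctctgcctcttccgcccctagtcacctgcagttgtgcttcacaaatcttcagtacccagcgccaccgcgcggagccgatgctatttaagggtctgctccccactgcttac
Tnfrsf13c, chr15:82224381-82224630, minus strand: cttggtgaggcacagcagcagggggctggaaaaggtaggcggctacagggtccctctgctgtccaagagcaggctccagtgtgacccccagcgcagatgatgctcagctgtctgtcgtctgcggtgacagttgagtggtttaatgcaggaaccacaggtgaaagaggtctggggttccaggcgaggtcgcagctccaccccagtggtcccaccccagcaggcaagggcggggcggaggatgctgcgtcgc

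The differences of the 9 genes were computed again under 14 alternatives. Ms4a1, Cr2, Fcer2a and Cd83 were above 0 in each and Tnfrsf13c below 0 in each. Cd22, Cd72, Cd40 and Tnfrsf13b turned sign in at least 1. The replicate block, the variance setting and both filter settings left every difference unchanged, so they could not turn a sign. Leaving out 1 array also cannot turn the sign of a gene whose groups do not overlap. The authors' deposited log2 table, whose values lie nearer the mean of a gene's probes than the brightest probe, gave 0.50 for Ms4a1, 0.35 for Cr2, 0.40 for Cd83 and -0.35 for Tnfrsf13c. With quantile normalization, median scaling or the deposited values, Fcer2a and Tnfrsf13b overlapped between the groups, which left 3 receptors higher. The share of all genes higher without overlap was 22.2%, 14.3% and 14.7% in turn.

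**Figure D5:**
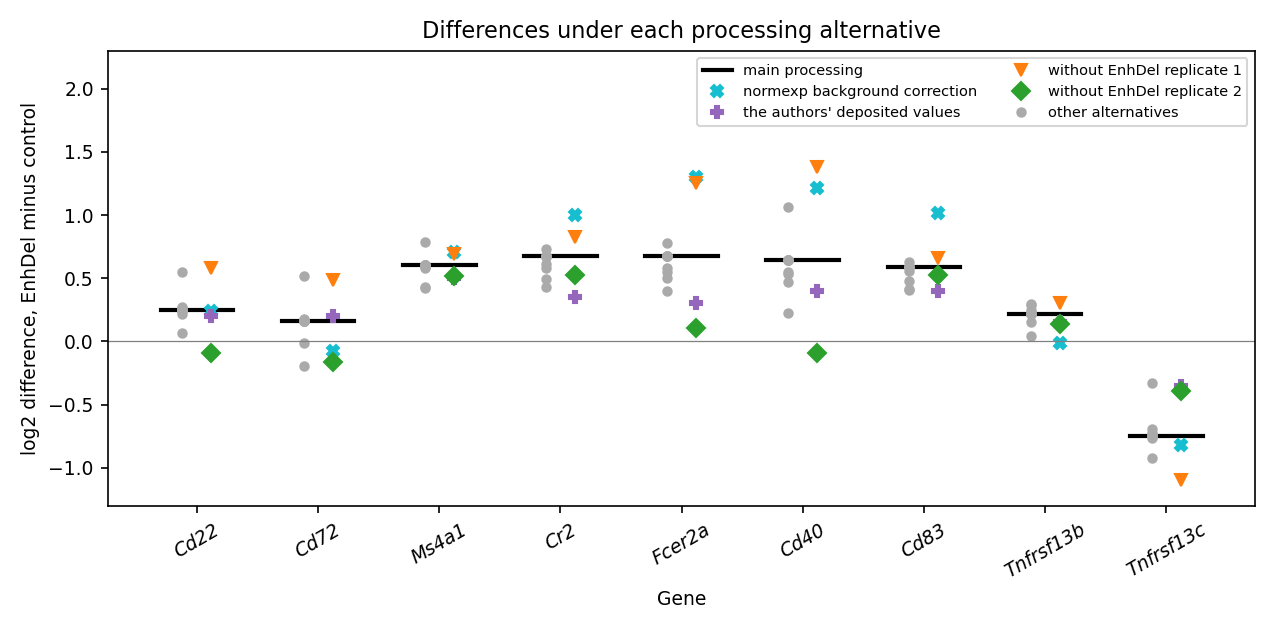
Log2 difference, EnhDel minus control (y axis), of each receptor gene (x axis) under the main processing (black line) and 14 alternatives, with 4 of them marked and the others as grey points. Leaving out EnhDel replicate 2 brings Fcer2a to 0.10 and Cd40 to -0.09 and leaves Ms4a1, Cr2 and Cd83 near 0.52.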

How the data were processed

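Each array's deposited scanner file was written by Agilent Feature Extraction 10.7.3.1, per the file headers, and holds the intensity of each spot on a linear scale with background already corrected in the processed signal. The authors also deposited a table of log2 values with equal array medians of 6.5 and an unstated origin. Over 6411 genes with several probes it lay nearer the mean of the probes than the brightest probe. Per the labels' protocols, RNA was extracted with Trizol, amplified linearly and labelled with Cy3.

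Control and flagged spots were left out. The processed signal was put on the log2 scale and the 75th percentile of the array subtracted. Probes were named by accession through RefSeq (26581 of 39429 matched), and each gene took its brightest probe. Genes whose probe was well above background on both control or both EnhDel arrays were fitted with limma 3.58.1 in R 4.3.3, all 4 arrays together, with Benjamini-Hochberg adjustment at 0.05. The fit was tested on simulated data. The number of arrays limits the precision. No 2 arrays were identical.

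The members and gene lists were chosen with earlier results of these data known. Named were all 9 members, the 3 nearest genes to each of 3 members, the 3 smallest p-values of each pathway list, and Cd79b, Tnfrsf17, Tnfsf13b and Pax5, besides Cebpa, Xist and Ddx3y as checks. Sema4d, C3, Cd40lg and Tnfsf13, ligands of members, fall outside this rule and were chosen after their values were seen. The same holds for Mpo, Camp, Cd4, Ly6d and Dntt, named from the marker lists. Alternatives covered background, scaling, filter, probe choice, variance, replicate block and each array left out. One gene that the rule takes is left out of the text.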

Additional observations from a re-analysis of the deposited data

How the results depend on the processing

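Of 126 member values under 14 alternatives, 116 kept their direction and side of the threshold. Part of that count was fixed in advance. The replicate block, the variance setting and both filter settings leave the log2 differences of the members unchanged. No gene passed adjustment in limma in the main processing, and 26 did with median scaling; leaving out 1 array gave 0 to 3210, the highest without EnhDel replicate 1 (93 without EnhDel replicate 2). Receptors higher without overlap numbered 3 with quantile normalization, median scaling and the deposited values. With 1 array left out they numbered 5 to 8, where 34.15% to 49.93% of all genes were higher. The 8 came without EnhDel replicate 1, where that share was 49.93%. Receptors lower numbered 1 to 2 with 1 array left out, where 21.6% to 38.9% of all genes were lower. The members' median was 0.30 in the deposited values and 0.10 to 0.66 with 1 array left out (0.27 without control replicate 1, 0.10 without EnhDel replicate 2). With normexp that median was 0.71, or 0.40 with the 6 spots repaired. Signs turned for Cd72 (-0.072 with normexp, -0.015 with median scaling, -0.19 to 0.52 with 1 array left out), Tnfrsf13b (-0.015 with normexp), Cd22 (-0.093 to 0.58 with 1 array left out) and Cd40 (-0.089 to 1.38, likewise). Members passed adjustment only without EnhDel replicate 1: Cr2 (0.82), Fcer2a (1.25) and Tnfrsf13c (-1.10). In that fit the lone EnhDel array is assumed to vary like the controls, so no conclusion is drawn from it. Normexp with 6 spots of high local background on EnhDel replicate 1 repaired gave 0.16 for Cd72 and 0.25 for Tnfrsf13b, with the signs of the main processing. Causes of the other changes were not tested.

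The median of all genes was 0.20 with normexp and -0.12 with median scaling, against 0.06. Genes lower and higher without overlap made up 31.9% and 14.3% with median scaling, against 16.6% and 27.2%. With normexp they were 23.3% and 36.5%, with quantile normalization 20.2% and 22.2%, and with the deposited values 15.0% and 14.7%.

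With 2 pairs, the replicate numbers share only a number (correlation of deviations -0.02). With the replicate block, 0 genes passed adjustment (1942 before it), and no member had a limma adjusted p below 0.43; the members' median stayed 0.59.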
